A study of Homo sapiens with 18 samples.

Results

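The genes described here are 9 targets of the transcription factor NRF2: the antioxidant genes NQO1, TXNRD1, SRXN1, GCLC, GCLM and HMOX1, and the aldo-keto reductases AKR1B10, AKR1C1 and AKR1C3. They were chosen by name, and their rows were found by Ensembl identifier in the gene count tables of 2 lung cancer cell lines. All 9 were found in both tables, out of 60809 identifiers present in either one, and all 9 had enough counts to be tested in each line.

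NRF2, encoded by NFE2L2, is held at a low level by KEAP1, an adaptor that brings it to a ubiquitin ligase. Oxidants and electrophiles modify KEAP1, after which NRF2 accumulates, pairs with a small MAF protein and binds antioxidant response elements near its targets. BACH1 competes for the same elements as a repressor, and HMOX1 is the target best known for that repression. In lung cancer, lesions of KEAP1 or NFE2L2 can leave the pathway permanently active, and high NQO1 and aldo-keto reductase levels are a familiar mark of such tumours.

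H1650 and PC9 are human lung adenocarcinoma lines with an activating EGFR mutation, and RNA was measured in their brain metastatic derivatives. Each line had 3 groups of 3 libraries, which the labels name by condition and treatment: BrM with control treatment (BrM control), Tr-BrM with control treatment (Tr-BrM control) and Tr-BrM with S100A9-inh. The labels do not define Tr, the agent or construct behind S100A9-inh or the number of clones, and they do not say whether libraries of 1 group were grown separately. The p-values therefore measure only the spread between these libraries, which may be technical. The comparisons ask how the BrM and Tr-BrM derivatives of a line differ and how Tr-BrM cells differ with and without S100A9-inh.

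Total counts were 17.4 to 27.11 M per library in H1650 and 18.17 to 21.75 M in PC9, and replicate 1 of PC9 S100A9-inh stood apart from its fellows. S100A9, the gene named in the treatment label, changed with the labels: its log2 fold change was 0.56 ± 0.05 (SE) between Tr-BrM and BrM controls and -1.67 ± 0.05 under S100A9-inh in H1650, and 2.61 ± 0.04 and -4.49 ± 0.05 in PC9. Of 10 lung epithelial markers, 7 were at or above 1 CPM (read counts relative to the library's scaled total) on average in each of the 6 groups, and the lung lineage markers NKX2-1, NAPSA and SFTPB were below it. In H1650 the summed level of 7 astrocyte markers was 35.1 to 43.1 CPM in BrM controls, 267 to 276 CPM in Tr-BrM controls and 211 to 223 CPM with S100A9-inh, and that of 10 fibroblast and endothelial markers was 25.2 to 27.9, 166 to 187 and 192 to 196 CPM. The 11 microglia and myeloid markers summed to 90.7 to 93.4, 102 to 108 and 110 to 120 CPM in H1650, where 7, 4 and 5 of them averaged below 1 CPM. Between the H1650 controls, 6 of the 7 tested myeloid markers were higher and 1 was lower at an adjusted p under 0.05 (median log2 fold change 2.23, lowest -0.147). Of the 7 astrocyte markers, 6 were higher and 1 was lower (lowest -2). Among all tested genes, 32.2% were higher and 31.7% lower. In PC9 the astrocyte sum was 15.5 to 16.6, 97.7 to 103 and 34.2 to 37.7 CPM with S100B at 0, the myeloid sum was 31 to 31.7, 12 to 13.9 and 18.8 to 21.5 CPM with TYROBP, C1QA and C1QB at 0, and the fibroblast and endothelial sum was 49.6 to 53.7, 53.2 to 56.1 and 40.9 to 46.3 CPM with LUM at 0. In PC9 these sums rested on few genes. All but SLC1A3 of the astrocyte markers averaged below 1 CPM in both control groups, AQP4 and GJA1 had no count in Tr-BrM controls or with S100A9-inh, and SLC1A3 alone was at 14.5 to 15.6, 95.7 to 101 and 32.8 to 35.9 CPM. Of the myeloid markers, 10, 9 and 9 averaged below 1 CPM. CSF1R, at 30 to 30.7, 7.06 to 8.17 and 16.1 to 18.1 CPM, fell between the PC9 controls (log2 fold change -2.01 ± 0.09, adjusted p = 2.29e-18), and ITGAM rose (2.28 ± 0.22, adjusted p = 1.4e-10). The part of these markers in the results below was not tested.

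Promoter sequences are shown for members with a match to a pattern searched for the antioxidant response element core. This is the element through which the members share a regulator. Promoter entries from RefSeq (GRCh38.p14), which run from 250 bases before a gene's start to 50 bases after it, existed for 7 of the 9 members, and TXNRD1 and AKR1C3 had an entry for each of 2 starts. Both strands were searched for TGACNNNGC and TGAGNNNGC. The first was present in 13.3% and the second in 18.3% of all 35116 promoter entries of 300 bases, and 29.1% had at least 1 of them. NQO1, GCLM, TXNRD1 and AKR1C1 had a match, and GCLC, SRXN1 and AKR1C3 had none in these windows. GCLM and TXNRD1 matched both patterns, while NQO1 and AKR1C1 matched TGAGNNNGC only. Sequence further from the starts was not searched. No match contained TGACTCA or its reverse complement, the overlapping AP-1 motif, which was in 4.95% of all entries. In the sequences below, written 5′ to 3′ on the strand of the gene, capitals mark the match. A match describes letters only and does not show that NRF2 bound there.
NQO1, chr16:69726651-69726699, reverse strand: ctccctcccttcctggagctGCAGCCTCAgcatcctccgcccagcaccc
GCLM, chr1:93909410-93909484, reverse strand: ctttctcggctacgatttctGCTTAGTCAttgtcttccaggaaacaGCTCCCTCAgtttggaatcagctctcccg
TXNRD1, upstream start, chr12:104215660-104215799, forward strand: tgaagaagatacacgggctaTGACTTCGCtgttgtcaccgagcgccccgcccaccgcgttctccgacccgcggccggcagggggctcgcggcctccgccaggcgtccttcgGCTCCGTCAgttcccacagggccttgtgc
TXNRD1, downstream start, chr12:104286814-104286958, forward strand: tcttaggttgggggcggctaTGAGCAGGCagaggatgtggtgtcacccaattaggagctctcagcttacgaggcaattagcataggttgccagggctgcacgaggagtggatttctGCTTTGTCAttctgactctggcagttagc

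The promoter entry of AKR1C1 is shown beside that of its neighbour AKR1C2, which is not one of the 9. The sequences are nearly the same, and the counted RNA of the 2 genes moved apart in PC9. How reads that match both genes were split is not given, so these levels are uncertain. The gene model of AKR1C2, on the reverse strand, runs to 5018031, upstream of the window shown, so starts outside that window are not covered. The 300-base entries were identical at 288 of 292 aligned bases (98.6%). The 250 bases before each start follow, with the 1 match of each, to TGAGNNNGC, in capitals.
AKR1C1, chr10:4963165-4963414, forward strand: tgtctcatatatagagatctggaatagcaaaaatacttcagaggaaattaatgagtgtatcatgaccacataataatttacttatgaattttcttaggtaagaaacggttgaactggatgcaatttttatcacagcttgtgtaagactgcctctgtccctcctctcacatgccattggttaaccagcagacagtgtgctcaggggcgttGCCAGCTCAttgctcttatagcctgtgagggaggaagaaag
AKR1C2, chr10:5003858-5004107, reverse strand: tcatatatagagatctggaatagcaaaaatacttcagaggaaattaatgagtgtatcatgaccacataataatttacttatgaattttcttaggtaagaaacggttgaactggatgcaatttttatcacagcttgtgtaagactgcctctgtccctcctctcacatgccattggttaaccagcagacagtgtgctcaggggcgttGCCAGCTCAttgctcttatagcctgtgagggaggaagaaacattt

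The 2 lines differed in which members they expressed. To set genes beside each other, CPM was divided by kilobases of exon, the union of all annotated exons of a gene. On that scale the order in the H1650 BrM controls was NQO1 (188 ± 1.92, SD, n = 3), TXNRD1 (112 ± 0.6), HMOX1 (15.2 ± 0.08), GCLM (8.11 ± 0.335) and GCLC (3.47 ± 0.0176). The 3 aldo-keto reductases and SRXN1 were all between 0.105 and 0.314, where neighbours lay within or close to their spread. The first 5 kept that order in the other H1650 groups. In the PC9 BrM controls AKR1B10 came first (256 ± 0.737), ahead of NQO1 (198 ± 2.53) and TXNRD1 (183 ± 3.73), followed by AKR1C3 (63.2 ± 1.32), GCLM (20.7 ± 0.735) and AKR1C1 (20.6 ± 0.305), which did not differ beyond their spread, then HMOX1 (9.37 ± 0.775), GCLC (4.22 ± 0.0233) and SRXN1 (1.06 ± 0.183). In PC9 Tr-BrM controls AKR1B10 reached 642 ± 9.27 and AKR1C1 (80.2 ± 0.598) stood above AKR1C3 (57.6 ± 1.47), while HMOX1 (1.93 ± 0.293) was last, below SRXN1 (3.91 ± 2.04). Under S100A9-inh in PC9, AKR1C3 (93.7 ± 1.46) was again above AKR1C1 (44 ± 0.211). The order between genes depends on the length used. The exon union is 8765 bases for AKR1C1 and 4532 for AKR1C3, but their principal transcripts are 6705 and 1807 bases. With the latter lengths AKR1C1 would not stand above AKR1C3 in PC9 Tr-BrM controls. Levels of the 2 lines came from separate tables and were not tested against each other.

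**Figure D1:**
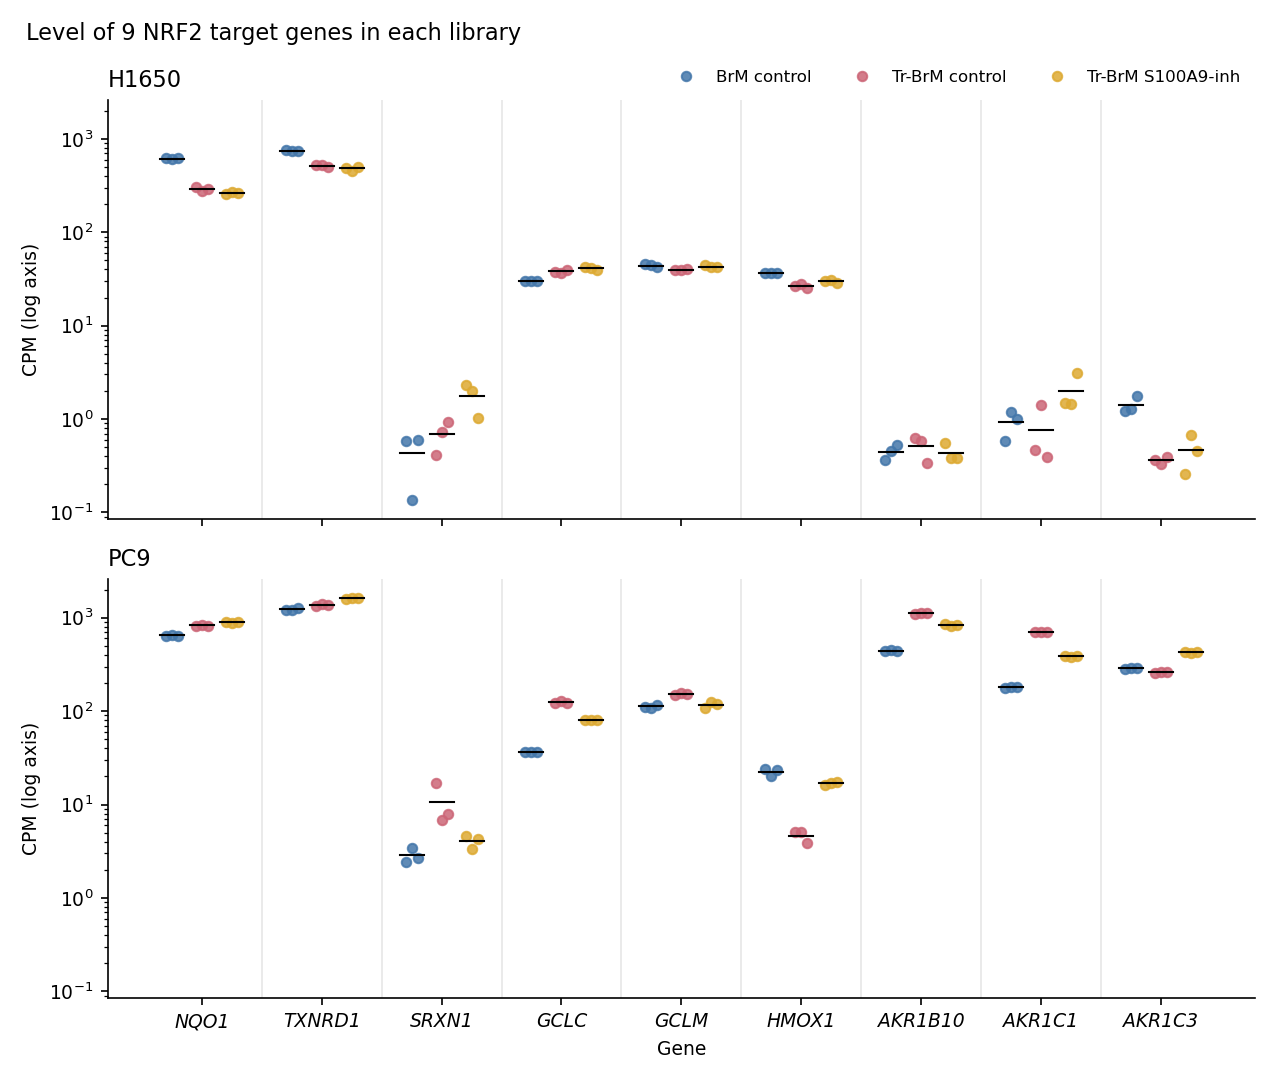
Level of each of the 9 genes in every library, in CPM on a log axis, for H1650 (top) and PC9 (bottom); each point is 1 library and each bar the mean of 3. AKR1B10, AKR1C1 and AKR1C3 are at most 3.11 CPM in every H1650 library and at least 178 CPM in every PC9 library.

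Between Tr-BrM and BrM controls, more members fell than rose in H1650, and more rose than fell in PC9. In H1650, GCLC rose, while NQO1, GCLM, TXNRD1, HMOX1 and AKR1C3 fell and the other 3 did not pass the threshold of 0.05 (edgeR's quasi-likelihood test, adjusted over all tested genes by Benjamini-Hochberg). These 6 of 9 calls stand beside 63.9% of all 17937 tested genes called in that comparison, 32.2% higher and 31.7% lower. In bulk RNA a change per cell and a change in the share of cells that carry the RNA cannot be told apart. In PC9, all 9 were called, with 7 higher and 2 lower (HMOX1 and AKR1C3), beside 59.9% of all 16169 tested genes, 29.6% higher and 30.3% lower. The median log2 fold change of the 9 was -0.17 in H1650 and 0.445 in PC9, against 0.00 over all tested genes in each line.

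The next comparison, S100A9-inh against Tr-BrM control, shares the Tr-BrM control libraries with the first. H1650 had 5 calls among the 9 (SRXN1, HMOX1 and AKR1C1 higher, NQO1 and TXNRD1 lower), beside 29.2% of all tested genes, 15.4% higher and 13.8% lower. With scaling by library size alone that split of all genes turned, from 2762 higher and 2468 lower to 2201 and 3193, and HMOX1 did not pass. PC9 again had 9, beside 52.5% (26.3% higher and 26.1% lower), with NQO1, TXNRD1, HMOX1 and AKR1C3 higher and GCLM, GCLC, SRXN1, AKR1B10 and AKR1C1 lower. The medians were 0.11 and -0.38. Between S100A9-inh and BrM control, which share libraries with the comparisons above, 3 were higher and 4 lower in H1650 beside 63.6% of all tested genes called (32.5% higher and 31.2% lower), and 6 were higher and 1 lower in PC9 beside 46.3% (22.7% higher and 23.6% lower). The near-even splits of PC9 each turned under at least 1 other scaling, and that of S100A9-inh against BrM control went from 3675 higher and 3814 lower to 4387 and 3182 with upper quartile scaling. Between the H1650 controls, 5777 higher and 5692 lower became 6802 and 4672 with library size alone. The medians of the 9 against BrM control were -0.04 and 0.516. Over the 6 comparisons within a line, 43 of 54 member values passed, and 17 of these had a log2 fold change of at least 1 in size. The libraries of the groups did not overlap in any of the 43, but these were picked by their p-value, so that is no separate result. Counted whether called or not, the groups did not overlap for 6, 6 and 7 of the 9 members in H1650 and for 9, 9 and 7 in PC9. Among all tested genes, the groups did not overlap in 67.5, 39.2 and 66.7% in H1650 and in 65.7, 56.3 and 52.9% in PC9, in the same order of comparisons.

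**Figure D2:**
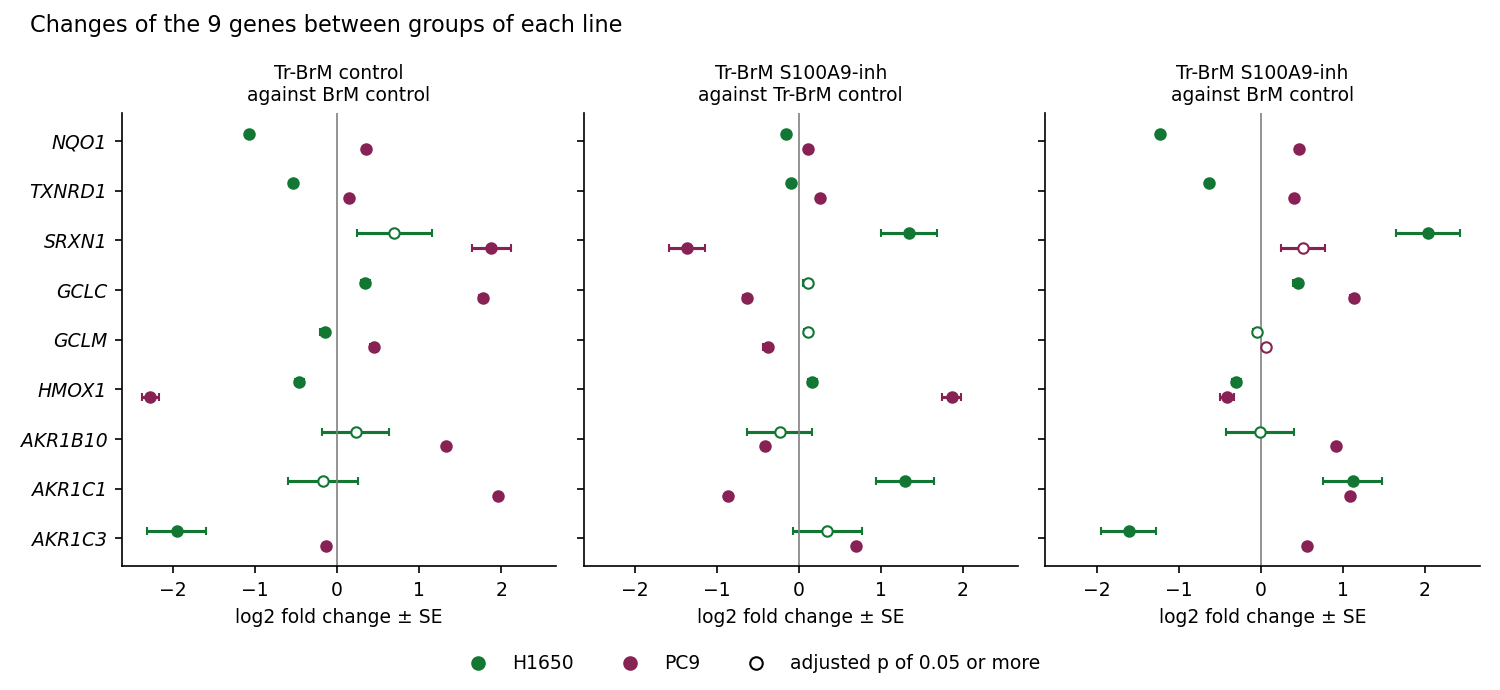
Log2 fold change of each of the 9 genes ± SE in the 3 comparisons, for H1650 (green) and PC9 (purple), 3 libraries against 3; open symbols have an adjusted p of 0.05 or more. NQO1 and TXNRD1 lie below 0 in H1650 and above 0 in PC9 in all 3 panels, and HMOX1 in PC9 goes from -2.27 to 1.86 between the first and second panel.

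NQO1 reduces quinones and is the standard readout of NRF2 activity. It lies on chromosome 16 (69706996 to 69726951, reverse strand, 7 exons in GENCODE 29 on GRCh38). In H1650 it was at 616, 606 and 617 CPM in BrM, at 305, 279 and 293 CPM in Tr-BrM, and at 255, 268 and 262 CPM in the Tr-BrM libraries with S100A9-inh. The BrM controls were highest and the 3 groups did not overlap. NQO1 was 2.1-fold lower in Tr-BrM than in BrM controls (log2 fold change -1.07 ± 0.03, adjusted p = 1.42e-21), and 1.12-fold lower again under S100A9-inh (-0.16 ± 0.03, adjusted p = 0.000469).

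In PC9 NQO1 went the other way, at 644, 655 and 639 CPM in BrM controls, 814, 837 and 825 CPM in Tr-BrM controls and at 893, 878 and 897 CPM under S100A9-inh. Every group was separate from the next, and the S100A9-inh libraries were highest. The log2 fold change was 0.35 ± 0.03 between the controls (adjusted p = 4.48e-11) and 0.11 ± 0.03 under S100A9-inh (adjusted p = 0.005). An antisense gene, AC092115.2, covers 17.7% of the exon bases of NQO1, and whether strand was used in counting is not given.

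TXNRD1, cytosolic thioredoxin reductase, returns oxidised thioredoxin to its reduced form with NADPH. It lies on chromosome 12 (104215779 to 104350305, forward strand), and no 50-base stretch of its transcripts occurs in another gene. In H1650 it followed the order of NQO1, at 753, 745 and 749 CPM in BrM, 523, 523 and 503 CPM in Tr-BrM and 489, 458 and 498 CPM with S100A9-inh. The drop between controls was 1.45-fold (log2 fold change -0.54 ± 0.03, adjusted p = 7.09e-15). The further -0.10 ± 0.03 under S100A9-inh (adjusted p = 0.0174) no longer passed without replicate 2 of the Tr-BrM controls (adjusted p = 0.0592) or without replicate 2 of S100A9-inh (0.104).

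TXNRD1 in PC9 was at 1209, 1224 and 1258 CPM in BrM controls, 1327, 1389 and 1375 CPM in Tr-BrM controls and at 1601, 1641 and 1628 CPM under S100A9-inh. The groups did not overlap, and both steps were upward, by 0.15 ± 0.03 (adjusted p = 0.000135) and 0.25 ± 0.03 (adjusted p = 5.05e-08) on the log2 scale. Both NQO1 and TXNRD1 were therefore lowest under S100A9-inh in H1650 and highest under it in PC9. These steps from Tr-BrM control were small, and none of them passed edgeR's test against a fold of 1.2 in either line. Against that fold the difference between the lines in this step did not pass for NQO1 (adjusted p = 0.45) but did for TXNRD1.

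SRXN1, sulfiredoxin, restores peroxiredoxins that have been over-oxidised. Its counts were few in H1650, 3 to 63 per library, and its levels there were 0.587, 0.136 and 0.592 CPM in BrM controls, 0.416, 0.732 and 0.923 CPM in Tr-BrM controls and 2.31, 1.98 and 1.03 CPM with S100A9-inh. The control groups overlapped and did not differ past the threshold (log2 fold change 0.70 ± 0.46, adjusted p = 0.188). The S100A9-inh libraries were all above them, by 1.34 ± 0.34 over Tr-BrM controls (adjusted p = 0.00355).

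In PC9 SRXN1 was at 2.45, 3.4 and 2.69 CPM in BrM controls, 16.9, 6.86 and 7.93 CPM in Tr-BrM controls and at 4.6, 3.37 and 4.3 CPM under S100A9-inh. Replicate 1 of the Tr-BrM controls was well above the other 2, and all 3 were above both other groups. The log2 fold change was 1.88 ± 0.23 between controls (adjusted p = 3.92e-08) and -1.37 ± 0.22 under S100A9-inh (adjusted p = 5.3e-06), and 1.38 and -0.86 without replicate 1 of the Tr-BrM controls. SRXN1 lies on chromosome 20 (646615 to 653370, reverse strand), where the gene model AL121758.1 on the same strand covers 85% of its exon bases. Reads from the shared part cannot be told apart, so the level of SRXN1 is uncertain. AL121758.1 itself had 0 to 8 counts in H1650 and 2 to 17 in PC9.

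GCLC and GCLM are the catalytic and the modifier subunit of glutamate-cysteine ligase, the first and rate-limiting enzyme of glutathione synthesis. GCLC (chromosome 6, 53497341 to 53616970, reverse strand) was at 36.3, 36.7 and 36.6 CPM in PC9 BrM controls, 124, 128 and 123 CPM in Tr-BrM controls and at 80.8, 80.04 and 79.8 CPM under S100A9-inh. The Tr-BrM controls were highest, the S100A9-inh libraries intermediate, and no groups overlapped. GCLC rose 3.42-fold between controls (log2 fold change 1.77 ± 0.05, adjusted p = 1.12e-23), fell by 0.64 ± 0.04 under S100A9-inh (adjusted p = 3.24e-13), and stayed 1.14 ± 0.05 above BrM control (adjusted p = 2.99e-18).

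GCLM (chromosome 1, 93885205 to 93909456, reverse strand) was at 111, 109 and 117 CPM in PC9 BrM controls, 148, 156 and 154 CPM in Tr-BrM controls and at 107, 126 and 119 CPM under S100A9-inh. Only the Tr-BrM controls stood apart, since the S100A9-inh range covered the BrM range. The log2 fold changes were 0.44 ± 0.05 between controls (adjusted p = 3.62e-09), -0.38 ± 0.05 under S100A9-inh (adjusted p = 9.73e-08) and 0.06 ± 0.05 against BrM control (adjusted p = 0.322). The last became 0.13 ± 0.04 (adjusted p = 0.00802) without replicate 1 of S100A9-inh, the library that stands apart.

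In H1650 both subunits changed by at most 0.45 on the log2 scale. GCLC was at 29.9, 30.2 and 29.9 CPM in BrM controls, 38, 36.9 and 39.7 CPM in Tr-BrM controls and at 42.4, 41.6 and 39.1 CPM under S100A9-inh, so that the BrM controls were lowest and the other groups overlapped. Its log2 fold change was 0.35 ± 0.05 between controls (adjusted p = 2.78e-06) and 0.11 ± 0.05 under S100A9-inh (adjusted p = 0.125). GCLM was at 45.5, 44.4 and 41.9 CPM in BrM, 39.6, 39.3 and 39.9 CPM in Tr-BrM and 44.2, 42.1 and 42.1 CPM with S100A9-inh. The Tr-BrM controls were lowest by a narrow margin (-0.15 ± 0.05, adjusted p = 0.00866), and that call was lost with scaling by library size alone (-0.07, adjusted p = 0.23) and without replicate 1 of the BrM controls (adjusted p = 0.0537).

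HMOX1, haem oxygenase 1, breaks haem down to biliverdin, iron and carbon monoxide. It lies on chromosome 22 (35380361 to 35394214, forward strand). In PC9 it was at 23.9, 20.4 and 23.3 CPM in BrM controls, 5.05, 5.06 and 3.83 CPM in Tr-BrM controls and at 16.4, 17.1 and 17.3 CPM under S100A9-inh. The Tr-BrM controls were far below both other groups, and none of the groups overlapped. HMOX1 fell 4.84-fold between controls (log2 fold change -2.27 ± 0.11, adjusted p = 1.49e-17) and was 3.64-fold higher under S100A9-inh (1.86 ± 0.11, adjusted p = 9.03e-15), which left it 0.41 ± 0.09 below BrM control (adjusted p = 0.000283).

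HMOX1 in H1650 was at 36.5, 36.3 and 36.7 CPM in BrM controls, 26.3, 28 and 25.1 CPM in Tr-BrM controls and at 29.7, 31.1 and 28.5 CPM under S100A9-inh. The order of the groups was the one seen in PC9 on a smaller scale. The log2 fold change was -0.46 ± 0.06 between controls (adjusted p = 5.76e-08) and 0.16 ± 0.06 under S100A9-inh (adjusted p = 0.0317). The second call was lost with DESeq2 (adjusted p = 0.107), with scaling by library size alone (0.0965), in a fit of only the 2 groups (0.0538) and without replicate 1 (0.0842) or 3 (0.159) of the Tr-BrM controls or replicate 1 (0.067) or 2 (0.113) of S100A9-inh.

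AKR1B10 reduces retinal and other aldehydes and is a well-known NRF2 target in lung tumours. It lies on chromosome 7 (134527592 to 134541408, forward strand). In PC9 it was at 445, 447 and 445 CPM in BrM controls, 1103, 1135 and 1122 CPM in Tr-BrM controls and at 855, 818 and 842 CPM under S100A9-inh. The replicates were close and the groups well apart. AKR1B10 rose 2.51-fold between controls (log2 fold change 1.33 ± 0.03, adjusted p = 7.2e-25), and fell by 0.42 ± 0.03 under S100A9-inh (adjusted p = 2.12e-12).

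In H1650 AKR1B10 had only 7 to 16 counts per library, at 0.34 to 0.624 CPM, the groups overlapped, and none of its 3 comparisons passed (adjusted p = 0.655, 0.712 and 0.984). Its closest relative AKR1B15, whose principal transcript is 85.1% identical over the aligned bases, shares 9.69% of the 50-base windows of AKR1B10 and was itself at 9.23 to 9.8 CPM in PC9 BrM controls. AKR1B1, the aldose reductase of the polyol pathway, had a similar course in PC9, with log2 fold changes of 0.94 ± 0.03 and -0.80 ± 0.03 (adjusted p = 1.25e-20 and 1.91e-18), but in H1650 it fell 2.83-fold between controls (SE 0.03 on the log2 scale, adjusted p = 1.74e-24), where the BrM controls were at 434 to 446 CPM.

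AKR1C1 and AKR1C3 reduce steroids, prostaglandins and aldehydes. AKR1C1 inactivates progesterone, while AKR1C3 makes active androgens and prostaglandin F. They lie with AKR1C2 in a cluster on chromosome 10, AKR1C1 at 4963253 to 4983283 and AKR1C3 at 5035354 to 5107686, both on the forward strand. In PC9 AKR1C1 was at 178, 183 and 180.5 CPM in BrM controls, 703, 709 and 698 CPM in Tr-BrM controls and at 385, 383.5 and 387 CPM under S100A9-inh. The replicates were close, with the Tr-BrM controls highest and S100A9-inh between. AKR1C1 rose 3.9-fold between controls (log2 fold change 1.96 ± 0.03, adjusted p = 1.45e-28) and fell 1.83-fold under S100A9-inh (-0.87 ± 0.03, adjusted p = 1.59e-19).

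AKR1C3 in PC9 had another order of groups. It was at 279.6, 291 and 289 CPM in BrM controls, 253, 265 and 265 CPM in Tr-BrM controls and at 425, 418 and 431 CPM under S100A9-inh. The S100A9-inh libraries were clearly highest and the Tr-BrM controls just below the BrM controls. The log2 fold change was -0.13 ± 0.04 between controls (adjusted p = 0.00199) and 0.70 ± 0.04 under S100A9-inh (adjusted p = 1.9e-16).

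AKR1C2, a 3-alpha-hydroxysteroid dehydrogenase, is needed to read AKR1C1, because the principal transcripts of the pair are 97.6% identical over 3750 aligned bases and 28.3% of the 50-base windows of AKR1C1 also occur in AKR1C2. How the counter treated reads that match both is not given, so the split between them is uncertain. In PC9 AKR1C2 was at 545, 544 and 548 CPM in BrM controls, 598, 619.8 and 610.1 CPM in Tr-BrM controls and at 1977, 2008 and 2053 CPM under S100A9-inh, a 3.3-fold rise over Tr-BrM controls (log2 fold change 1.72 ± 0.03, adjusted p = 1.25e-27). AKR1C1 thus fell where AKR1C2 rose. AKR1C1 made up 17.7 to 18% of the counts of the 3 AKR1C genes in BrM controls, 44.4 to 45.2% in Tr-BrM controls and 13.5 to 13.8% under S100A9-inh, while AKR1C2 made up 53.4 to 54.4, 38.5 to 38.9 and 70.9 to 71.5%. Summed, the 3 genes were at 1002 to 1018, 1554 to 1593 and 2787 to 2872 CPM, with log2 fold changes of 0.64 ± 0.03 between controls and 0.84 ± 0.03 under S100A9-inh (adjusted p = 9.2e-18 and 1.74e-20). The sum does not depend on how reads are split among the 3, although shared reads that were dropped would be missing from it. It rose in both comparisons, whereas AKR1C1 alone fell in the second and AKR1C3 alone in the first.

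**Figure D3:**
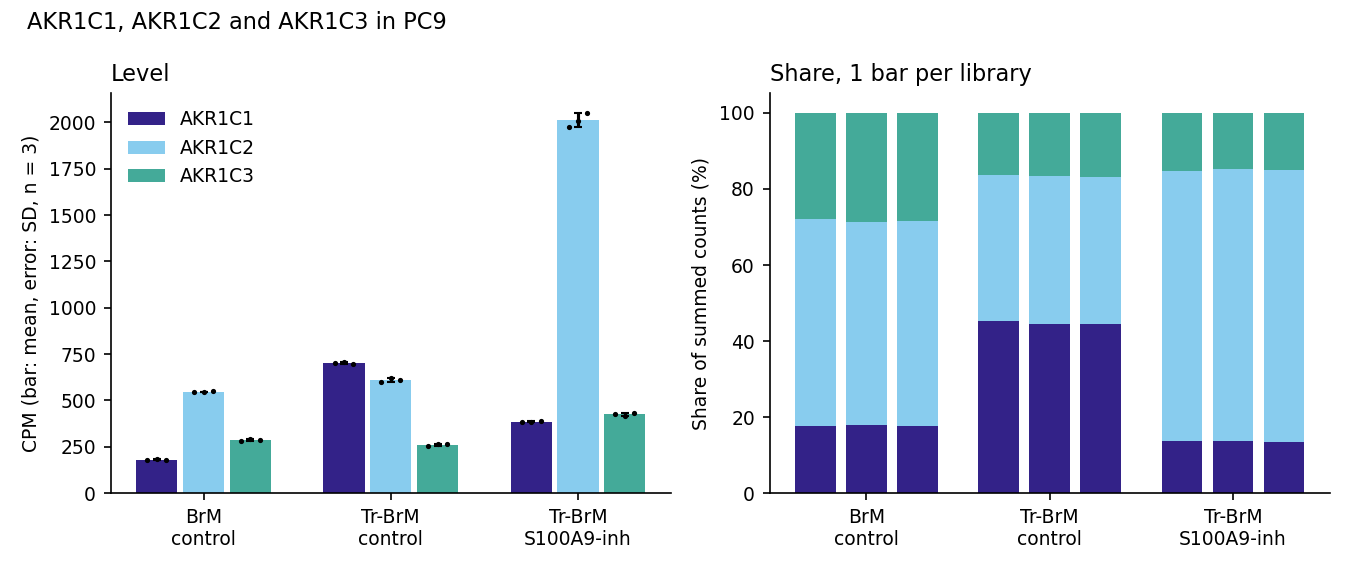
Levels of AKR1C1, AKR1C2 and AKR1C3 in PC9 in CPM (left, bars are means, error bars SD, points the 3 libraries) and each gene's share of their summed counts in every library (right). The share of AKR1C1 is 44.4 to 45.2% in the Tr-BrM controls and at most 18% in all other libraries.

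In H1650 the AKR1C genes were close to the limit of counting. AKR1C1 was at 0.587, 1.18 and 1.01 CPM in BrM controls, 0.468, 1.427 and 0.389 CPM in Tr-BrM controls and at 1.47, 1.434 and 3.11 CPM under S100A9-inh, from 8 to 81 counts per library. The controls overlapped, the lowest S100A9-inh library was barely above the highest Tr-BrM control, and the call under S100A9-inh (log2 fold change 1.29 ± 0.36, adjusted p = 0.00654) was lost without replicate 3 of that group (0.83, adjusted p = 0.113) and was larger without replicate 2 of the Tr-BrM controls (2.22, adjusted p = 0.000273). Against BrM controls the change of 1.12 was also lost without that S100A9-inh library (0.65, adjusted p = 0.134). AKR1C3 was at 1.22, 1.27 and 1.77 CPM in BrM controls, 0.364, 0.329 and 0.389 CPM in Tr-BrM controls and at 0.257, 0.675 and 0.46 CPM under S100A9-inh, from 7 to 30 counts. Here the BrM controls were apart from the rest, with a log2 fold change of -1.96 ± 0.36 between controls (adjusted p = 2.75e-05) and 0.35 ± 0.42 under S100A9-inh (adjusted p = 0.597). AKR1C2, at 2 to 42 counts, was higher under S100A9-inh than in Tr-BrM controls (2.47 ± 0.51, adjusted p = 0.000418). Summed, AKR1C1, AKR1C2 and AKR1C3 changed by -0.92 ± 0.30 between controls (adjusted p = 0.00949) and by 1.38 ± 0.28 under S100A9-inh (adjusted p = 0.000321).

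The change itself differed between the lines for most members, in a test of the PC9 change minus the H1650 change over all 18 libraries. SRXN1 and HMOX1 had different identifier versions in the lines, so the gene models counted may differ for them. For Tr-BrM against BrM control, 8 of the 9 differed, beside 54.6% of all 19076 tested genes, and SRXN1 did not pass (1.18 ± 0.64, adjusted p = 0.122). It did pass with no filter beyond a count above 0 (1.17, adjusted p = 0.0323), without replicate 2 of the H1650 BrM controls (1.64, adjusted p = 0.0364) and without replicate 2 of the PC9 Tr-BrM controls (1.41, adjusted p = 0.047). The difference was 1.42 ± 0.05 for NQO1 (adjusted p = 6.22e-27) and 2.10 ± 0.38 for AKR1C1 (adjusted p = 8.35e-06) on the log2 scale, and -1.81 ± 0.12 for HMOX1 (adjusted p = 1.51e-16), which fell in both lines and fell further in PC9. The AKR1C1 value depended on replicate 2 of the H1650 Tr-BrM controls, which held 39 counts against 9 and 8 in the other two, and was 3.06 without it (adjusted p = 3.26e-08). For S100A9-inh against Tr-BrM control, 7 differed, beside 40.4% of all genes, and AKR1B10 and AKR1C3 did not pass. AKR1C1 differed by -2.13 ± 0.28 (adjusted p = 4.79e-08) and by -3.11 without that library (adjusted p = 4.15e-10). Its split from AKR1C2 is uncertain, and AKR1C1, AKR1C2 and AKR1C3 summed rose in both lines in that comparison. For S100A9-inh against BrM control, 6 differed, beside 50.2%, and GCLM, HMOX1 and AKR1C1 did not.

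NFE2L2, KEAP1 and BACH1 changed by at most 0.68 on the log2 scale in any comparison within a line. NFE2L2 was at 88.4 to 91 CPM in H1650 BrM controls, 115 to 121 CPM in Tr-BrM controls and at 112 to 116 CPM under S100A9-inh, and it rose by 0.40 ± 0.04 on the log2 scale between controls (adjusted p = 1.92e-10) while NQO1 fell. In PC9 it was at 59.9 to 64.6, 70.7 to 77.8 and 57.7 to 61.6 CPM, a rise of 0.24 ± 0.05 (adjusted p = 0.000288) and a fall of 0.29 ± 0.05 (adjusted p = 2.88e-05). KEAP1 fell by 0.20 ± 0.04 between the PC9 controls and rose by 0.18 ± 0.04 under S100A9-inh (adjusted p = 0.000199 and 0.000932). BACH1, the repressor of HMOX1, rose in H1650 Tr-BrM controls (0.53 ± 0.07, adjusted p = 4.27e-08), did not pass between the PC9 controls (-0.08 ± 0.07, adjusted p = 0.311) and fell under S100A9-inh in PC9 (-0.29 ± 0.07, adjusted p = 0.00124). In H1650 BACH1 was at 41.4 to 41.9 CPM in Tr-BrM controls and at 43.3 to 50.7 CPM under S100A9-inh, without overlap. The groups did not overlap for 39.2% of all tested genes there. HMOX1 was also higher in that comparison (log2 fold change 0.16 ± 0.06), a call that was lost in 8 of 14 alternative analyses. Whether BACH1 had a part in the HMOX1 changes was not tested. SQSTM1, an adaptor that sequesters KEAP1, fell by 1.35 ± 0.05 between the H1650 controls (adjusted p = 1.92e-19) and rose by 0.45 ± 0.03 between those of PC9 (adjusted p = 2.25e-13). RNA levels do not report the amount of NRF2 or KEAP1 protein. Of 13 regulators, 6 were higher and 5 lower between H1650 controls and 5 higher and 4 lower between PC9 controls. Under S100A9-inh 4 were higher and 1 lower in H1650 and 3 higher and 4 lower in PC9. Of all tested genes, 32.2% were higher and 31.7% lower between H1650 controls, and 29.6% and 30.3% between PC9 controls. Under S100A9-inh the shares were 15.4% and 13.8% in H1650 and 26.3% and 26.1% in PC9. The counts of the lists that follow stand beside the same shares.

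The genes listed as NADPH supply are given for 2 comparisons that share the Tr-BrM controls. The list includes TKT and TALDO1, whose enzymes do not make NADPH themselves. Of 5 in PC9, 1 was higher and 4 were lower in Tr-BrM than in BrM controls, and 4 were higher and 1 was lower under S100A9-inh. IDH1, the cytosolic isocitrate dehydrogenase, fell by 1.31 ± 0.04 and rose by 1.31 ± 0.04 on the log2 scale (adjusted p = 2.09e-21 and 4.75e-21), and TKT, transketolase, fell by 0.22 ± 0.04 and rose by 0.38 ± 0.04 (adjusted p = 4.6e-06 and 2.42e-10). TALDO1, transaldolase, was the 1 that rose between the controls (0.53 ± 0.04, adjusted p = 1.4e-13). The median log2 fold changes of the 5 were -0.12 and 0.38. In H1650 the same list was split, 3 higher and 2 lower between controls, with IDH1 changed by -0.37 ± 0.04 on the log2 scale (adjusted p = 3.64e-10) and ME1 (malic enzyme) higher by 0.78 ± 0.06 (adjusted p = 1.83e-12). Under S100A9-inh 1 of the 5 was higher and 3 were lower in H1650 (median -0.09), unlike in PC9.

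The wider glutathione list was mixed. In PC9, 9 of 24 tested genes were higher and 12 lower between controls (median -0.09), and 12 were higher and 7 lower under S100A9-inh (median 0.10). SLC7A11, the cystine transporter that supplies cysteine for glutathione, fell by 0.40 ± 0.06 between PC9 controls (adjusted p = 7.63e-07), where GCLC rose, and GPX2, a glutathione peroxidase, fell by 1.45 ± 0.05 (adjusted p = 3.73e-21). In H1650, 10 of 22 were higher and 7 lower between controls (median 0.04), with SLC7A11 higher by 0.53 ± 0.06 (adjusted p = 1.85e-08) and GPX1 lower by 1.44 ± 0.04 (adjusted p = 3.82e-23). Under S100A9-inh 4 were higher and 4 lower in H1650 (median -0.02).

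Among 18 thioredoxin and peroxidase genes, 11 were higher and 5 lower between PC9 controls (median 0.208), with TXN, thioredoxin, at the smallest p of the list (0.74 ± 0.03, adjusted p = 8.97e-18) and SOD2, the mitochondrial superoxide dismutase, at 0.86 ± 0.05 (adjusted p = 1.3e-15), and 7 were higher and 9 lower between H1650 controls (median -0.08). Under S100A9-inh the counts were 5 higher and 7 lower in PC9 and 2 higher and 3 lower in H1650. Of 9 haem and iron genes, 4 were higher and 4 lower between controls in each line. The ferritin light chain FTL rose between PC9 controls (0.77 ± 0.03, adjusted p = 4.52e-20), where HMOX1 fell. Under S100A9-inh, 3 were higher and 3 lower in PC9, with the ferritin heavy chain FTH1 higher (0.65 ± 0.04, adjusted p = 3.71e-15), and 2 were higher and 4 lower in H1650.

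Of the other detoxification and NRF2-linked genes, 5 of 16 were higher and 6 lower between PC9 controls (median -0.09). Under S100A9-inh 9 were higher and 2 lower (median 0.31), beside 26.3% and 26.1% of all tested genes. Among the 9 were ALDH3A1, an aldehyde dehydrogenase (1.24 ± 0.06, adjusted p = 2.16e-16), and PTGR1, prostaglandin reductase 1 (0.60 ± 0.03, adjusted p = 3.57e-15). In H1650, 4 of 10 were higher and 5 lower between controls (median -0.07), with EPHX1, microsomal epoxide hydrolase, lower (-1.84 ± 0.06, adjusted p = 1.91e-21), and 1 was higher and 2 lower under S100A9-inh. Of the other aldo-keto reductases, 4 of 8 were higher and 0 lower between PC9 controls and 1 was higher and 3 lower under S100A9-inh, while in H1650 2 of 6 were higher and 3 lower between controls and 1 was higher and 2 lower under S100A9-inh.

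**Figure D4:**
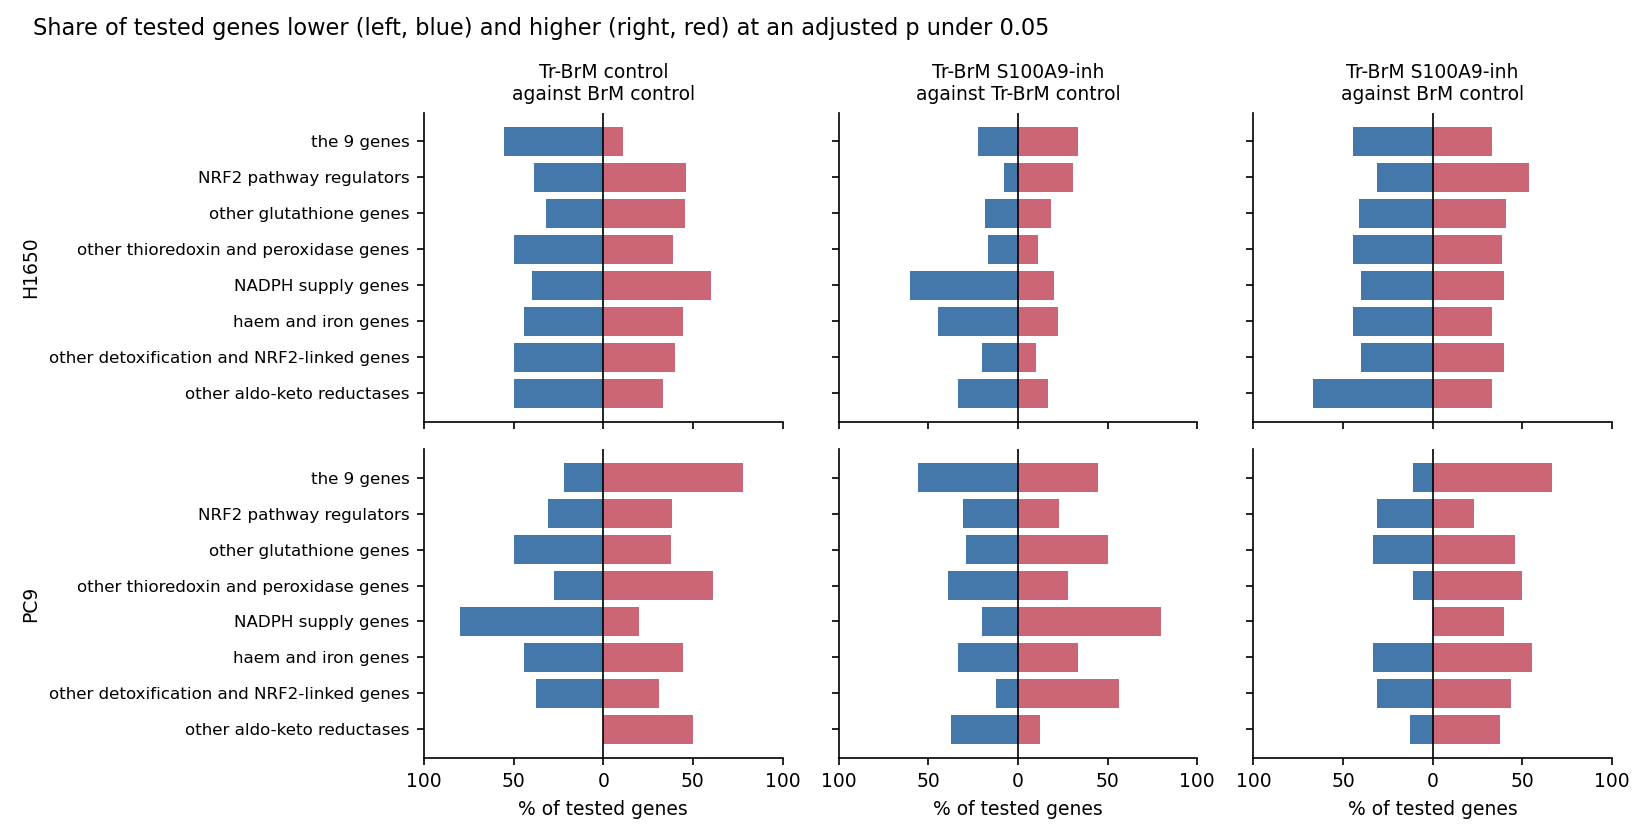
Share of the tested genes of each list that were higher (red, right) or lower (blue, left) at an adjusted p under 0.05, for the 3 comparisons (columns) in H1650 and PC9 (rows). The NADPH supply genes in PC9 have 4 of 5 lower in the first column and 4 of 5 higher in the second, and these columns share the Tr-BrM controls. In the third column 2 of the 5 are higher and 0 lower. In H1650 the 3 columns have 3 higher and 2 lower, 1 higher and 3 lower, and 2 higher and 2 lower. Of all tested genes, 59.9, 52.5 and 46.3% were called in the 3 columns in PC9 and 63.9, 29.2 and 63.6% in H1650.

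The 9 members were left out of the search for genes that followed NQO1 and AKR1C1, so none of them could appear. Among other genes, those closest over the 9 libraries of a line were not from the lists above, with 1 exception. By Pearson correlation of log2 CPM among genes with a mean of at least 5 CPM, those nearest to NQO1 in H1650 were TMEM173 (0.999), SLC1A6 (0.999) and the aldose reductase AKR1B1 (0.998), of 10949 genes. In PC9 they were PLK2 (0.997), HMGB2 (0.995) and NTSR1 (0.995), of 10503. Nearest to AKR1C1 in PC9 were CD55 (0.999), NT5E (0.999) and PI3 (0.999), and in H1650, where AKR1C1 counts are few, RLIM (0.932), ZFP36L1 (0.909) and ZSCAN21 (0.907). These libraries share their groups, so a likeness of this size describes a common order of 3 groups and not an independent relation.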

How the data were processed

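Libraries for sequencing were made from poly-A selected RNA, per the labels' protocols. For each line the authors deposited raw counts of reads per gene in 9 libraries, as whole numbers without normalization. STAR, GRCh38, R 4.0.1 and DESeq2 1.28.1 are named in the submitters' processing notes. The STAR version is not given in the sources used here. The same holds for the counting tool, the annotation release and the use of strand. The annotation was not the same for both lines. Of 60603 gene identifiers in H1650 and 60649 in PC9, 60443 were shared, and SRXN1 and HMOX1 had different identifier versions in the lines.

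The deposited counts of each line were filtered with filterByExpr by group, scaled by TMM and fitted in edgeR 4.0.16 (R 4.3.3), all 9 libraries together. P-values of its quasi-likelihood test were adjusted by Benjamini-Hochberg across every tested gene, and 0.05 was the threshold. Differences between lines were interaction contrasts over 18 libraries, with genes matched by identifier without its version. SE was computed as the log2 fold change divided by the root of the F statistic. For genes with few counts a fitted fold change depends on the prior count. Total counts were 17.4 to 27.11 M per library, so small changes of abundant genes pass. No replicate pair was identical (chi-square per degree of freedom 1.523 to 5.94, with 5.94 and 5.366 for PC9 S100A9-inh replicate 1 against replicates 2 and 3). Gene models were GENCODE 29, and exon lengths are the union of a gene's exons.

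The members and lists were chosen with earlier results of these data known. The rule for named genes took all members, further genes by name (among them NFE2L2, KEAP1, BACH1, SLC7A11, AKR1C2, AKR1B1, AKR1B15 and AKR1C4), up to 3 genes with the smallest p per list and comparison, and the 3 genes most like NQO1 and AKR1C1. Not all of these are named, 1 listed gene is not reported here and was left out of its list's counts, and those printed were picked with their values in view. The script was tested on simulated counts. Alternatives were other scalings and filters, DESeq2 1.42.0, a fold threshold, fits of only the 2 groups compared, the AKR1C genes summed, and leaving out each library in turn.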

Additional observations from a re-analysis of the deposited data

Results flagged for a closer look

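The following values are differences between the lines, the PC9 log2 fold change minus the H1650 log2 fold change, that passed an adjusted p of 0.05 in edgeR's interaction test over all 18 libraries. For Tr-BrM against BrM control they were 1.42 for NQO1, 0.60 for GCLM, 1.43 for GCLC, 0.68 for TXNRD1, -1.81 for HMOX1, 1.09 for AKR1B10, 2.10 for AKR1C1 and 1.81 for AKR1C3. NQO1, GCLM and TXNRD1 fell in H1650 and rose in PC9, GCLC rose in both, and HMOX1 and AKR1C3 fell in both. The PC9 change of AKR1C3 was small (-0.13), did not pass against a fold of 1.2, and was 0.64 with AKR1C1, AKR1C2 and AKR1C3 summed. In H1650 AKR1C3 had 7 to 30 counts per library and AKR1B10 had 7 to 16.

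For S100A9-inh against Tr-BrM control the differences were 0.27 for NQO1, -0.49 for GCLM, -0.74 for GCLC, 0.35 for TXNRD1, -2.70 for SRXN1, 1.70 for HMOX1 and -2.13 for AKR1C1. The difference of NQO1 did not pass edgeR's test against a fold of 1.2 (adjusted p = 0.45). SRXN1 and AKR1C1 rose in H1650, from few counts, and fell in PC9. The split of reads between AKR1C1 and AKR1C2 is uncertain. AKR1C1, AKR1C2 and AKR1C3 summed rose in both lines, by 1.38 in H1650, from few counts, and by 0.84 in PC9. Without replicate 2 of the H1650 Tr-BrM controls the AKR1C1 difference was -3.11 here and 3.06 for Tr-BrM against BrM control.

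For S100A9-inh against BrM control the differences were 1.69 for NQO1, 0.69 for GCLC, 1.04 for TXNRD1, -1.53 for SRXN1, 0.92 for AKR1B10 and 2.17 for AKR1C3. AKR1B10 had 7 to 16 counts per library in H1650, and its difference did not pass when H1650 BrM control replicate 2 or 3 (0.89 and 0.79) or H1650 S100A9-inh replicate 2 or 3 (0.81 and 0.81) was left out. That of SRXN1 did not pass without H1650 BrM control replicate 2 (-1.07) or H1650 S100A9-inh replicate 1 (-1.29).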

How the results depend on the processing

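Of 1277 recomputed member values, 1230 kept their side of the threshold without a reversed call, and 15 of these, in 6 results that did not pass, changed sign. With AKR1C1, AKR1C2 and AKR1C3 summed, 3 reversed against the single gene: S100A9-inh against BrM control in H1650 was 0.46 (AKR1C3 alone -1.61), Tr-BrM against BrM control in PC9 was 0.64 (AKR1C3 alone -0.13), and S100A9-inh against Tr-BrM control in PC9 was 0.84 (AKR1C1 alone -0.87). Against a fold threshold of 1.2, which asks for more than a difference from 0, called genes were 7490, 1176 and 7283 in H1650 (from 11469, 5230 and 11416) and 5900, 4187 and 3310 in PC9 (from 9684, 8487 and 7489) for Tr-BrM against BrM control, S100A9-inh against Tr-BrM control and S100A9-inh against BrM control, and 4557 (from 7704) differed between lines for S100A9-inh against Tr-BrM control. The members called for S100A9-inh against Tr-BrM control in H1650 were then 2, from 5. Leaving out 1 library at a time, that count was 3 to 4, lowest without S100A9-inh replicate 2, where the cause was not tested, and the counts of members in the other comparisons were 5 to 6 and 6 to 7 in H1650, and 9, 9 and 7 to 8 in PC9. Differences between lines were 8 to 9, 7 and 4 to 7. The 3 other scalings moved the median of all genes by 0.0836 at most. No paired analysis was possible because the labels give no replicate numbers shared between groups. Depth limits SRXN1 and the aldo-keto reductases in H1650, where a library held 3 to 81 counts of each.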
